A study of Mus musculus with 3 samples.

Results

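Imprinted genes are expressed mainly or only from the allele inherited from 1 parent. Those described here are 10 genes, Igf2r, Airn, Impact, Zrsr1, Commd1, Snrpn, Kcnq1ot1, Trappc9, Peg13 and H13, chosen by name out of the 55536 genes of the deposited tables. Total RNA was sequenced from T cells of the spleen of B6CASTF1/J mice in 3 libraries. These mice are first-generation hybrids whose dam was C57BL/6 and whose sire was CAST/EiJ. All were labelled as adult virgin females aged 66 days, with CD3 in the sample name and 300 ng of RNA with ERCC spike-in controls as input. They form 1 group (n = 3, replicates 1, 2 and 3), with no second strain, treatment or parental cross to compare them with. The 3 biosample records carry the same donor record, so the spread between them may be partly technical, and every SD and p-value below measures only the spread between these samples.

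Imprints are marks of DNA methylation set in the egg or the sperm and kept on that parental copy after fertilisation. Imprinted genes lie in clusters in which a long non-coding RNA, often read from the paternal copy, runs antisense to or within a protein-coding neighbour, and several others are retrogenes inserted into an intron of a host gene. A cross between a maternal C57BL/6 and a paternal CAST/EiJ genome makes the parental copies distinguishable in reads. The tables used here hold no allele counts, so each value below is the sum over both copies, and nothing in them shows which parental copy was read. The genes here and in the lists below are called imprinted by name only. Whether any of them is imprinted in these T cells was not measured. They were made against mm10, the C57BL/6 reference, and an effect of CAST/EiJ sequence differences on read assignment was not tested.

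The libraries held 16875039, 14988664 and 16197124 estimated gene counts in replicates 1, 2 and 3. Counts of a pair of libraries differed by more than counting error, with a chi-square per gene of 4.70 to 6.05 over the 10779 to 10973 genes with at least 100 counts in the pair, so none is a copy of another. This does not show that they came from separate animals, and n = 3 counts libraries. All 6 T-cell markers (Cd3e, Cd3d, Cd3g, Trac, Lck and Cd5) were detected, from Cd5 at 99.3 TPM to Trac at 492.2 TPM on average, and summed to 1639, 1634 and 1540 TPM. TPM is a level per transcript length, scaled to the same total in each library. The 3 B-cell markers summed to 4.91, 8.29 and 3.71 TPM, the 3 monocyte and macrophage markers to 23.2, 18.3 and 21.6 TPM, and the 2 globin genes to 40.4, 63.3 and 32.2 TPM. Of the 4 markers of stroma and endothelium, Col1a1, Col3a1 and Cdh5 stayed below 1 TPM in every library, and Pecam1 held nearly all of their 51.3 to 55.3 TPM. No marker on these lists was at 0 in every library. In bulk RNA, fewer cells of a type and less RNA per cell cannot be told apart.

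All 10 imprinted genes were detected at 1 TPM or more in all 3 libraries, a level that 11818 of the 55536 genes (21.3%) reached. They were chosen with earlier results of these data known, so their detection is no result about imprinted genes. Of 72 other imprinted genes found by name, 22 reached this level. The median level of the 10 chosen genes was 11.0 TPM, against 11.7 TPM over the genes at 1 TPM or more. H13, which encodes signal peptide peptidase, an enzyme that cuts signal peptides within the membrane, was the highest at 56.8 ± 5.77 TPM (SD, n = 3). Snrpn, which encodes the spliceosome protein SmN, was the lowest at 1.57 ± 0.121 TPM (SD, n = 3). Of the 10 genes, 4 (H13, Zrsr1, Impact and Trappc9) stayed at 10 TPM or more in every library, as did 6051 of all 55536 genes.

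**Figure D1:**
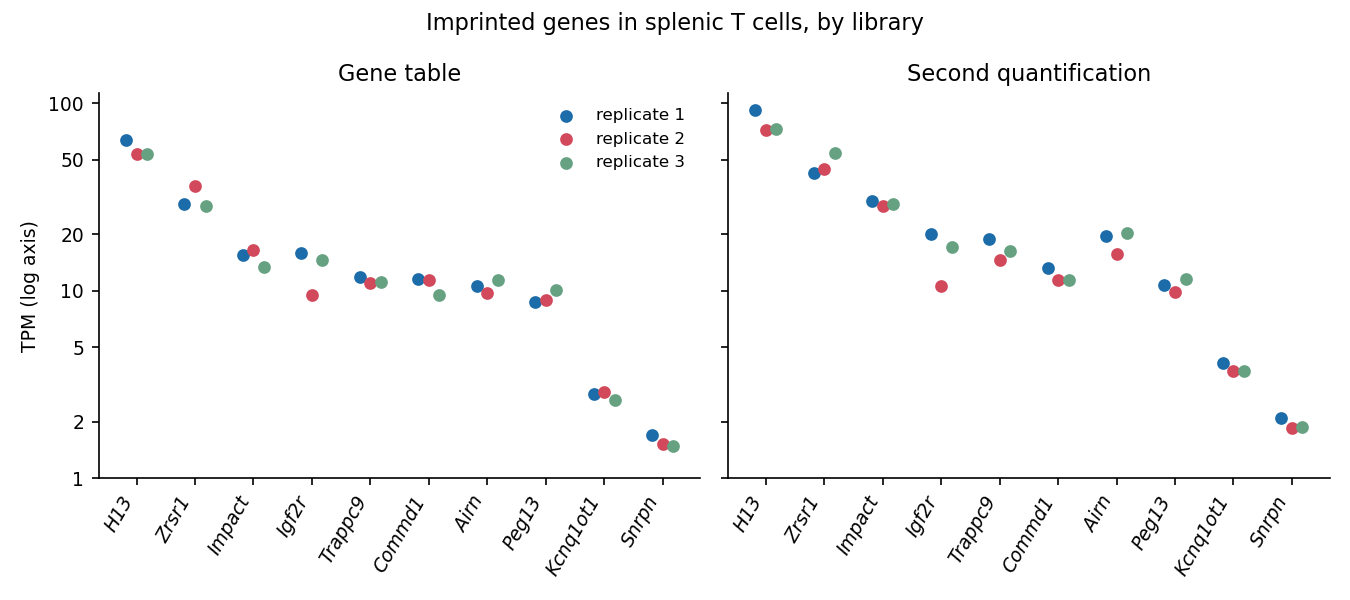
TPM of the 10 imprinted genes in each of the 3 libraries (log axis), in the gene table at left and in the second quantification at right; points are libraries. H13 lies above and Kcnq1ot1 and Snrpn lie below the other genes in both panels, with Igf2r of replicate 2 at 9.46 TPM in the gene table.

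The levels were well separated at the top and the bottom of the order and close in the middle. H13 (53.4 to 63.5 TPM) lay above Zrsr1 (28.2 to 36.1 TPM) in every library, and Zrsr1 above Impact (13.3 to 16.5 TPM), with no overlap of their ranges. From Impact through Igf2r, Trappc9, Commd1 and Airn to Peg13, each gene's range overlapped that of its neighbour in the order, and means ran from 15.1 to 9.20 TPM. Peg13 (8.66 to 10.1 TPM), Kcnq1ot1 (2.62 to 2.89 TPM) and Snrpn (1.48 to 1.71 TPM) were again apart from each other. In the second quantification of the same libraries 11534 genes shifted by a median of 1.30-fold. These were at 1 TPM or more in every library of the gene table and above 0 in the second quantification. The imprinted genes shifted by 1.12-fold for Commd1 to 1.92-fold for Impact, which put Airn above Igf2r.

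Igf2r encodes the receptor that carries IGF2 and mannose-6-phosphate-tagged enzymes to the lysosome, and in the mouse it is read from the maternal copy in most tissues. Airn is the paternally expressed RNA that starts inside Igf2r and silences that copy. In mm10 Igf2r lies at chr17:12682406-12769664 on the minus strand, and Airn at chr17:12741311-12860136 on the plus strand. Airn starts in intron 2 of the 47 introns of Igf2r-201, 28353 bases downstream of the Igf2r start, runs back across that start, and shares no exon base with it. The RefSeq promoter windows of the pair (GRCm38.p6, 250 bases before to 50 after the start, written 5′ to 3′ on each gene's strand) are shown because they differ widely in CpG count. Capitals mark the CpG dinucleotides, at which DNA can be methylated, and no methylation was measured.
Igf2r, chr17:12769657-12769956, minus strand: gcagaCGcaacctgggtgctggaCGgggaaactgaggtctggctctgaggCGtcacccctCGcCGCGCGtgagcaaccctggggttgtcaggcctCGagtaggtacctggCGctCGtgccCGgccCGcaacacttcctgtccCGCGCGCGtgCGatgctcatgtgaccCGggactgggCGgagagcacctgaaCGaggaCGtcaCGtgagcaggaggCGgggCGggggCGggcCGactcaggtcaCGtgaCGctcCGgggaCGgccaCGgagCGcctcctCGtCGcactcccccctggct
Airn, chr17:12741061-12741360, plus strand: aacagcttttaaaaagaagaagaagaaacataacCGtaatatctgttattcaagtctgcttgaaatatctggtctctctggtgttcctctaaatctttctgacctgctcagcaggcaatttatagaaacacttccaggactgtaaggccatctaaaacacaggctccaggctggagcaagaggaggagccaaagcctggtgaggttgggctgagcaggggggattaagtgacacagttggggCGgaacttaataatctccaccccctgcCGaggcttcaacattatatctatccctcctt
The Igf2r window held 34 CpG and the Airn window 3, against a median of 7 over 32851 mouse promoter windows. The Airn window is set on the start of the entry Airn-204, which held 1.88% of the Airn TPM. The entries with the highest shares, Airn-201 and Airn-203, start at positions 12741374 and 12741385, past the end of this window.

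Airn had 10.6, 9.67 and 11.4 TPM in replicates 1, 2 and 3, from 157, 138 and 175 counts. Igf2r had 15.8, 9.46 and 14.7 TPM, a wider range, from 2151, 1226 and 2068 counts. Igf2r in replicate 2 was 37.8% below the mean of the other 2 libraries, and the deposited interval around its value (8.66 to 11.4 TPM, interval level not stated) did not reach those of replicate 1 (14.5 to 17.4 TPM) or replicate 3 (13.5 to 16.4 TPM). Airn averaged 10.6 ± 0.858 TPM and Igf2r 13.3 ± 3.37 TPM (SD, n = 3 each), and Airn was higher in replicate 2 only. The mean log2 ratio of Airn to Igf2r was -0.30 ± 0.31 (SD, n = 3; exact two-sided sign-flip permutation test, p = 0.5, adjusted p = 0.5 over 7 pairs). With 3 libraries this exact test cannot go below p = 0.25 for any pair, so it cannot order one. In the second quantification the log2 ratio was 0.26, with Airn at 19.5, 15.7 and 20.2 TPM and Igf2r at 20.0, 10.5 and 17.0 TPM.

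Whether the genes varied between the 3 libraries more than other genes of like abundance was tested with edgeR over 13280 genes. The call was an adjusted p below 0.05 (Benjamini-Hochberg), and 75 genes met it, 0.565% of those tested. All 10 imprinted genes passed the filter on low counts, and 1 of them, Igf2r, was called (edgeR adjusted p = 0.00779), with TMM-scaled CPM (counts scaled to library size) of 125.7, 82.5 and 129.1. It ranked at 28 among all genes. B-cell and globin markers were highest in replicate 2, the library with the lowest Igf2r, at 8.29 and 63.3 TPM against 3.71 to 4.91 and 32.2 to 40.4 TPM in the others; the part of either in the result was not tested. All 3 monocyte and macrophage markers were lowest in replicate 2, at 18.3 TPM in sum against 21.6 and 23.2 TPM in the others, and their part was not tested either. Without replicate 2 the adjusted p of Igf2r was 0.995, and without replicate 1 or 3 it was 0.00411 or 0.0077.

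At an unadjusted p below 0.05, edgeR marked 4 of the 10 genes, against 755 (5.69%) of all genes tested: Igf2r, Zrsr1 (adjusted p = 0.213), Impact (adjusted p = 0.853) and Peg13 (adjusted p = 0.856). The coefficient of variation in TPM ran from 3.64% in Trappc9 to 25.4% in Igf2r, with a median of 9.21%, against 9.32% over the genes at 1 TPM or more.

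**Figure D2:**
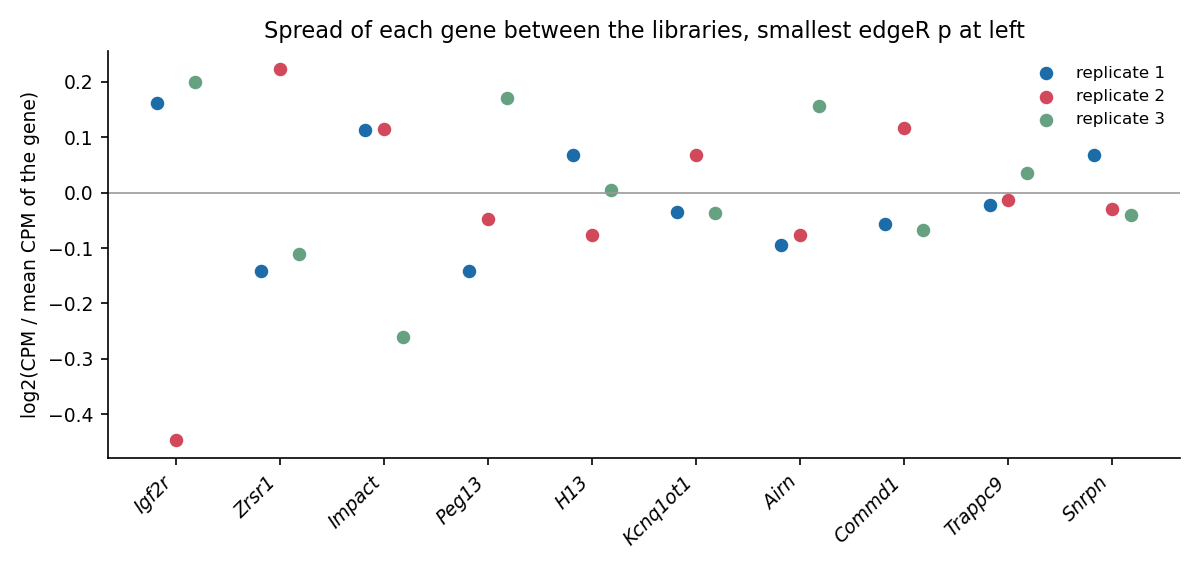
Log2 of each library's TMM-scaled CPM (counts scaled to library size) over the gene's mean, for the 10 imprinted genes ordered by the edgeR p of the spread test; points are libraries. Igf2r of replicate 2 (82.5 CPM, against 125.7 and 129.1) is the point farthest from 0.

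Kcnq1ot1 is the second antisense RNA, expressed from the paternal copy and known to silence genes of the Kcnq1 cluster in cis. It lies at chr7:143203458-143296549 on the minus strand and starts in intron 11 of the 15 introns of the potassium channel gene Kcnq1, with 121 exon bases shared between Kcnq1ot1-201 and Kcnq1-201. Its promoter window shows the start of this unspliced RNA, with CpG in capitals.
Kcnq1ot1, chr7:143296498-143296797, minus strand: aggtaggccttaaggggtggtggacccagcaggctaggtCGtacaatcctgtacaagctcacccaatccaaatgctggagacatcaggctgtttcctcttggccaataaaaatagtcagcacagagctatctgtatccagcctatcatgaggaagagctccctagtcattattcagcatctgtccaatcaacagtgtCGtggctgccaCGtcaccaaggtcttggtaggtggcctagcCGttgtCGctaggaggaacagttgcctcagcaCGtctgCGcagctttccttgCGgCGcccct
Kcnq1ot1 had 2.80, 2.89 and 2.62 TPM, a low level per length, yet 4437, 4137 and 4148 counts, since its annotated RNA is 1 unspliced entry of 93092 bases. It took on average 36.6% of all counts of the 10 genes. Its host Kcnq1 had 0, 0 and 1 count, so no ratio was formed. The deposited posterior mean of Kcnq1 was nonetheless 2.16 TPM on average, with intervals of 0.433 to 4.08, 0.532 to 4.53 and 0.485 to 4.14 TPM that span the level of Kcnq1ot1. On average 33.1%, 28.3%, 14.8% and 13.9% of the Kcnq1 posterior mean lay on the short entries Kcnq1-205, Kcnq1-204, Kcnq1-207 and Kcnq1-206. These entries had 0 counts in every library, so their posterior level does not rest on counted reads. What set that level was not tested. The reads assigned to the locus were nearly all counted for the antisense RNA, and the posterior columns alone do not order the pair.

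Airn is annotated in the opposite manner. Its 6 entries are spliced RNAs of 435 to 1375 bases with 3597 exon bases in all, although the gene spans 118826 bases. Airn-201 held 46.1 ± 1.81% of the Airn TPM, Airn-203 27.1 ± 2.63% and Airn-205 24.4 ± 2.94% (SD, n = 3). The second quantification gave 43.5%, 39.3% and 15.8%. Reads from the unspliced body of Airn have no entry in these tables, so its 9.67 to 11.4 TPM and the 2.62 to 2.89 TPM of Kcnq1ot1 count different forms of RNA.

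H13 and Mcts2 form a host and retrogene pair. Mcts2, an intronless copy of the translation factor gene Mcts1, is known to be read from the paternal copy, and in the mouse H13 transcripts of that copy end at polyadenylation sites before Mcts2, while those of the maternal copy run past it. Mcts2 (chr2:152687035-152687946) lies in intron 4 of the 12 introns of H13-202 (H13, chr2:152669461-152708670) on the same strand, with no shared exon base. Mcts2 had 13.7, 13.4 and 15.3 TPM in replicates 1, 2 and 3, and H13 had 63.5, 53.6 and 53.4 TPM. The levels of the pair did not overlap. Mcts2 averaged 14.2 ± 1.02 TPM, 4.00-fold below the 56.8 ± 5.77 TPM of H13 (SD, n = 3 each; log2 ratio -2.0 ± 0.20), and was lower in all 3 libraries. The exact two-sided sign-flip permutation test gave p = 0.25, the smallest it allows (adjusted p = 0.292 over 7 pairs).

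H13 entries were split by where they end relative to Mcts2. Entries that end upstream of Mcts2, H13-203 and H13-206, held 30.8%, 32.6% and 33.1% of the H13 TPM in replicates 1, 2 and 3. Entries that run across it, H13-202, H13-204 and H13-201, held 59.6%, 58.8% and 59.8%. The means were 32.2 ± 1.25% and 59.4 ± 0.52% (SD, n = 3), and the second quantification gave 30.6 ± 2.49% and 61.5 ± 0.80%. The remaining 8.43 ± 1.30% was H13-205, a retained-intron entry that starts downstream of Mcts2. Both classes of H13 entry were therefore assigned TPM in every library. These shares rest on reads assigned to annotated entries, and no transcript end was measured. Of the upstream share, H13-206, a retained-intron entry, made up 15.6% of the H13 TPM. Which parental copy gave which class is not shown either. Summed over its entries that run across Mcts2, H13 stood at 37.8, 31.5 and 31.9 TPM, and the log2 ratio of Mcts2 to these entries was -1.25.

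Among single entries, the coding entry H13-202 led with 45.3 ± 1.81%, followed by H13-203 with 16.6 ± 1.61%, the retained-intron entry H13-206 with 15.6 ± 0.908% and H13-204 with 14.1 ± 1.74% (SD, n = 3). H13-201, at 0 in the first table, held 10.6% in the second quantification. Retained-intron entries held 24.0 ± 1.34% of the H13 TPM, against a median of 25.7% over 6228 genes with such an entry. The windows of Mcts2 and H13 held 25 and 21 CpG, and the Mcts2 window is shown since it starts inside an H13 intron.
Mcts2, chr2:152686898-152687197, plus strand: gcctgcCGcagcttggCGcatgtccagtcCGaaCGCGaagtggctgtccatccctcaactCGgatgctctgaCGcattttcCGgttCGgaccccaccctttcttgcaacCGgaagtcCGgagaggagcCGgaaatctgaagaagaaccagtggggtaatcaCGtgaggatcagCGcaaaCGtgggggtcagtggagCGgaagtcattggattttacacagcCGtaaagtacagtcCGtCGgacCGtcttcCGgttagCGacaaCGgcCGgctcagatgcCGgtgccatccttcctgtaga
Capitals mark CpG. The RefSeq start lies 113 bases downstream of the start of the Mcts2-201 entry.

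**Figure D3:**
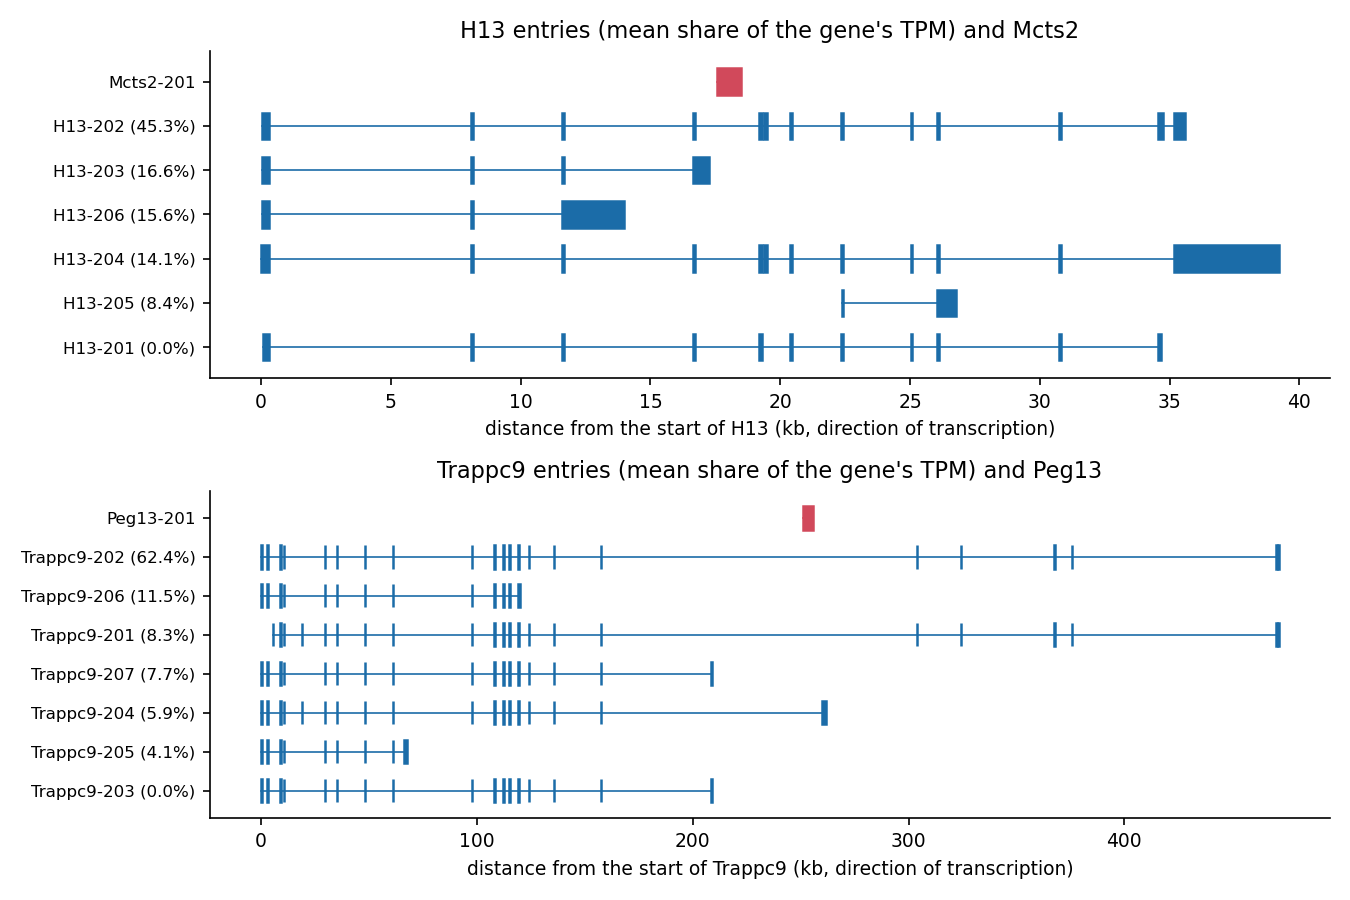
Exons (boxes) and introns (lines) of the entries of H13 and Trappc9 by distance in kb from the start of the host gene, with the nested genes Mcts2 and Peg13 in red and each entry's mean share of the host's TPM in brackets. H13-203 and H13-206 end before Mcts2, and H13-202, H13-204 and H13-201 run across it.

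Trappc9 and Peg13 form a pair of the same shape. Trappc9 encodes a subunit of the TRAPP complex of vesicle transport, and Peg13 is a non-coding RNA known to be read from the paternal copy. Peg13 (chr15:72805600-72810324) lies in intron 16 of the 21 introns of Trappc9-202 (Trappc9, chr15:72589620-73061204), on the same strand. Peg13 had 8.66, 8.87 and 10.1 TPM and Trappc9 11.8, 11.0 and 11.1 TPM. Peg13 was the lower in all 3 libraries, by 1.23-fold (log2 ratio -0.30 ± 0.15, SD, n = 3; exact two-sided sign-flip permutation test, p = 0.25, adjusted p = 0.292). On CPM, not divided by length, the log2 ratio was 0.06. Since both pairs lie on the same strand as their host, reads of unspliced host RNA over Mcts2 or Peg13 cannot be told apart from those genes' own.

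Trappc9 shares depended on the quantification. Trappc9-202 had the highest mean share in both, with 62.4 ± 3.85% and 34.7 ± 12.8% (SD, n = 3). In replicate 1 of the second quantification it held 22.1%, below Trappc9-205 with 27.4% and Trappc9-201 with 22.9%. Entries that run across Peg13 held 76.6 ± 3.26% in the first table and 54.4 ± 4.64% in the second quantification, and entries ending upstream of it 23.4 ± 3.26% and 45.6 ± 4.64%. The short coding entry Trappc9-205 made up most of that gap, with 4.12% and 26.5%. The retained-intron entry Trappc9-206 held 11.5% and 5.20%, and Trappc9-201 8.34% and 14.3%.

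Zrsr1, an intronless relative of the U2AF-type splicing factor gene Zrsr2 and known to be read from the paternal copy, lies at chr11:22972005-22976496 inside the first intron of Commd1-202 (Commd1, chr11:22896136-22982382). Commd1 encodes a protein of copper handling and of NF-kB turnover. The genes lie on opposite strands and share 412 exon bases, all through the Commd1-201 and Commd1-206 entries. The Zrsr1 window is shown as the start of a retrogene inside its host, with its 10 CpG in capitals.
Zrsr1, chr11:22971755-22972054, plus strand: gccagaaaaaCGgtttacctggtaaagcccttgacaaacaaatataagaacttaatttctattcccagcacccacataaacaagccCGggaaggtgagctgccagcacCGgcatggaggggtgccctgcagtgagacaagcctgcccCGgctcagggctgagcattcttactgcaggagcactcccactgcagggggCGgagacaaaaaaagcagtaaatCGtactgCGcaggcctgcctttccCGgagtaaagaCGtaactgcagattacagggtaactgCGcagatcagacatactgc
Zrsr1 had 29.1, 36.1 and 28.2 TPM and Commd1 11.6, 11.4 and 9.46 TPM. Zrsr1 averaged 31.1 ± 4.33 TPM, 2.88-fold above the 10.8 ± 1.16 TPM of its host (SD, n = 3 each; log2 ratio 1.53 ± 0.17), and was the higher in all 3 libraries (exact two-sided sign-flip permutation test, p = 0.25, adjusted p = 0.292). Of the 4 host pairs with a ratio, only this one had the inner gene above its host in every library. Commd1 rested on 92.3 to 99.0 counts per library.

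The level of Zrsr1 also depended on how reads were assigned. In the gene table replicate 2 was highest, and the deposited interval of replicate 2 (31.9 to 37.4 TPM) lay above those of replicates 1 and 3 (25.7 to 30.3 and 25.0 to 29.4 TPM). In the second quantification replicate 3 was highest, with 42.3, 44.3 and 54.4 TPM, and there Zrsr1 was called in the spread test (edgeR adjusted p = 0.00605). Its paralog Zrsr2 had 21.8, 16.6 and 24.6 TPM in the gene table, lowest where Zrsr1 was highest, and Zrsr1 and Zrsr2 together had 50.9, 52.7 and 52.7 TPM. Zrsr2 in the second quantification had 43.4, 32.2 and 42.6 TPM, and the pair together had 85.8, 76.6 and 97.0 TPM. Their transcripts aligned over 1236 bases at 81.6% identity with a longest shared run of 37 bases. Gene-table counts were whole numbers, 1477, 1650 and 1413 for Zrsr1 and 706, 525 and 663 for Zrsr2. The deposited posterior SD was 0% of the count for both genes. In the second quantification Zrsr1 had 2841, 2685 and 3806 counts and Zrsr2 had 830, 649 and 764. A split of reads between the 2 genes was not tested. In the gene table Zrsr1 was above Zrsr2 in all 3 libraries by 1.49-fold (log2 ratio 0.58 ± 0.48, SD, n = 3; exact two-sided sign-flip permutation test, p = 0.25, adjusted p = 0.292). The mean log2 ratio was 0.26 in the second quantification, where Zrsr1 was the lower in replicate 1.

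Within Zrsr1, Zrsr1-201 held 55.4 ± 0.554% and Zrsr1-202 44.6 ± 0.554% in the first table, but 96.1 ± 6.81% and 3.93 ± 6.81% in the second quantification (SD, n = 3). All 1287 bases of Zrsr1-202 lie inside Zrsr1-201. In Commd1, Commd1-202 led both tables with 59.9 ± 3.35% and 62.1 ± 13.2%, and Commd1-203 (22.2% and 1.82%) and Commd1-205 (4.18% and 17.3%) differed between the tables.

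Snrpn is known to be read from the paternal copy, mostly in brain, where SmN replaces the ubiquitous SmB of Snrpb. Snrpn (chr7:59982495-60140219) had 1.71, 1.53 and 1.48 TPM, from 53.4, 43.2 and 46.3 counts. Snrpb had 72.8, 68.9 and 63.8 TPM. Snrpn was 43.6-fold below Snrpb (log2 ratio -5.44 ± 0.04, SD, n = 3) and lower in all 3 libraries, the tightest ratio of the 7 pairs (exact two-sided sign-flip permutation test, p = 0.25, adjusted p = 0.292). Their transcripts aligned over 687 bases at 80.9% identity with a longest shared run of 32 bases. Snurf, the upstream reading frame of the same transcript, had 5.97, 2.14 and 4.63 TPM from 3.82 to 11.8 counts and was listed at 0 in the second quantification. All 216 bases of its entry lie inside Snrpn-201, so its level is uncertain.

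The quantifications disagreed on where Snrpn starts. The first table put 100% of its TPM in every library on Snrpn-201, which starts at position 60005111, and the second put 100% on Snrpn-202, which starts at position 60140219. By the posterior mean TPM of the first table the shares were 83.4 ± 7.41% for Snrpn-201 and 16.6 ± 7.41% for Snrpn-202 (SD, n = 3). The entries share 1849 bases, with 83 bases found only in Snrpn-201 and 227 only in Snrpn-202. The RefSeq windows of both starts are shown, with CpG in capitals.
Snrpn, window at the Snrpn-201 start, chr7:60005150-60005449, minus strand: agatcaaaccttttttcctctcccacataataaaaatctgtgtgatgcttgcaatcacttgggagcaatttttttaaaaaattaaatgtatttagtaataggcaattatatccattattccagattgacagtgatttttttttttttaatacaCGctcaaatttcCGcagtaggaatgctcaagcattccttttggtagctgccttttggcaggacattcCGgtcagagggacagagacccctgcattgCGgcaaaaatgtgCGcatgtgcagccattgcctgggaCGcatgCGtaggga
Snrpn, window at the Snrpn-202 start, chr7:60140176-60140475, minus strand: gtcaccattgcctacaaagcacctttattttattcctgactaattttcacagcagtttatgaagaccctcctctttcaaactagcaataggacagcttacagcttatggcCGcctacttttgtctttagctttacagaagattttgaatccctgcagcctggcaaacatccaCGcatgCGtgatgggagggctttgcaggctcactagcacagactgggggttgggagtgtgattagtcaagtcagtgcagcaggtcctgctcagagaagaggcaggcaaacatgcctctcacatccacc
They held 7 and 3 CpG, and their RefSeq starts lie 88 and 6 bases from the starts of these entries.

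Impact encodes an inhibitor of the GCN2 stress-response pathway and is known to be read from the paternal copy. Impact (chr18:12955852-12992950) had 15.5, 16.5 and 13.3 TPM from 458, 398 and 331 counts. It has 9 entries, and coding entries held 46.4 ± 2.70% of its TPM and retained-intron entries 46.4 ± 3.24% (SD, n = 3), where genes with such an entry had a median retained-intron share of 25.7%. The second quantification gave coding entries 35.8 ± 2.00% and retained-intron entries 26.7 ± 5.97% (SD, n = 3). No separate median over genes was computed for the second quantification. Impact-201, the longest, led with 34.7 ± 5.17%, with the retained-intron entries Impact-205 at 27.0 ± 9.21% and Impact-207 at 19.4 ± 11.6%. The retained-intron entries were high in different libraries, as Impact-205 held 35.3%, 17.1% and 28.7% and Impact-207 held 11.0%, 32.6% and 14.5%, on 14.4 to 56.9 counts. In the second quantification Impact-203, an entry annotated for nonsense-mediated decay, led with 32.5%, set against 1.13% in the first table.

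By mean share the leading entry was the same in both quantifications in 6 of the 8 genes with several entries, all but Impact and Snrpn. Igf2r-201, the full-length coding entry, held 93.1 ± 2.58% of the Igf2r TPM in the first table and 90.5 ± 4.55% in the second quantification (SD, n = 3). Kcnq1ot1 and Peg13 have 1 entry each.

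**Figure D4:**
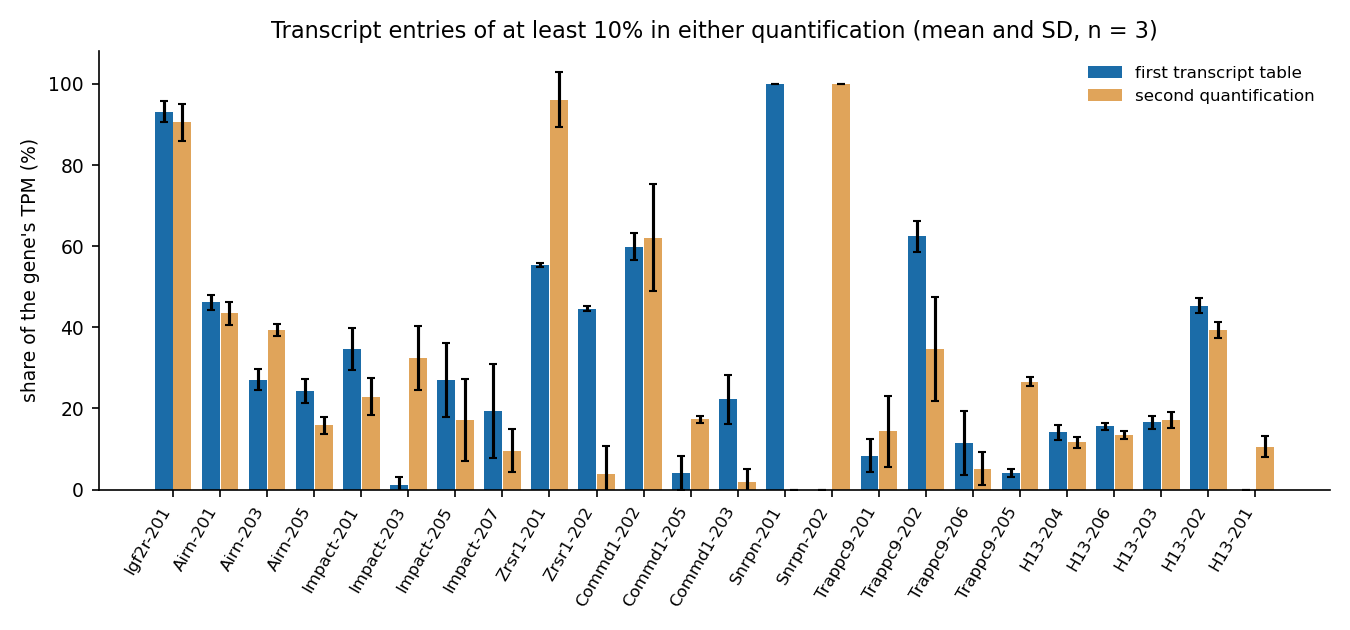
Share of the gene's TPM (%) of each transcript entry with a mean of at least 10% in either quantification, for the 8 imprinted genes with several entries; bars are means and error bars SD of 3 libraries. Igf2r-201 and H13-202 are close in both, and Snrpn-201 and Snrpn-202 are at 100% and 0% in the first table and at 0% and 100% in the second quantification.

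**Figure D5:**
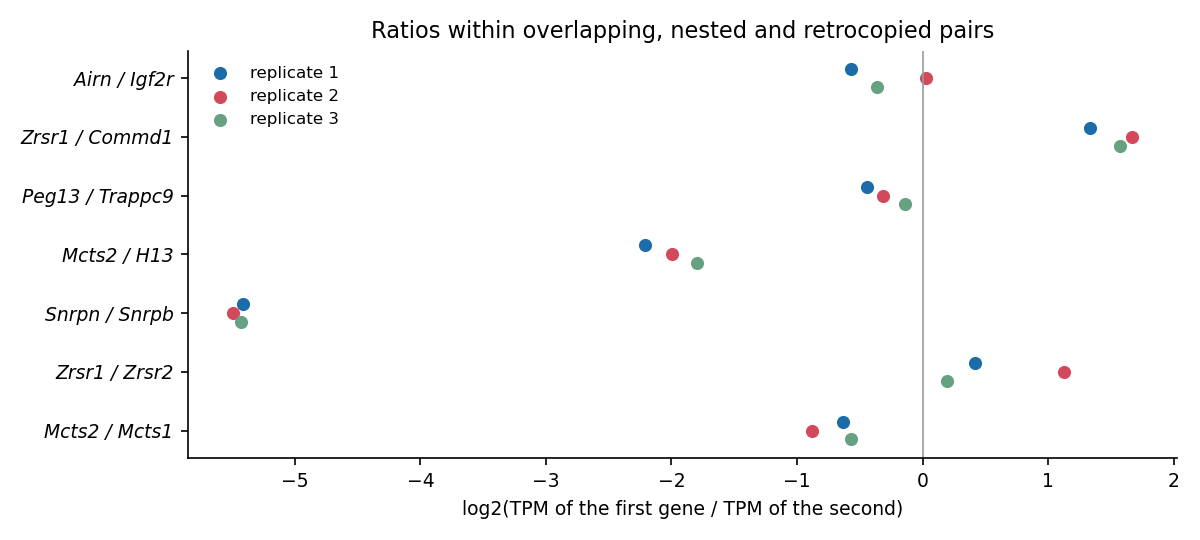
Log2 ratio of TPM, first over second gene, in each of the 3 libraries for the 7 pairs with a ratio; points are libraries and the line marks equal levels. Airn over Igf2r spans 0, Zrsr1 lies above Commd1 in all libraries, and Snrpn lies farthest below its paralog Snrpb.

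The last pair was that of Mcts2 with its parent gene. Mcts2 averaged 14.2 ± 1.02 TPM and Mcts1 22.9 ± 1.74 TPM (SD, n = 3 each), and the retrogene was lower in all 3 libraries by 1.62-fold (log2 ratio -0.69 ± 0.17; exact two-sided sign-flip permutation test, p = 0.25, adjusted p = 0.292). Their transcripts aligned over 668 bases at 84.7% identity.

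Promoter windows were used for 7 of the 10 genes, 11 windows in all, with a median of 9 CpG against 7 over all windows. Windows on chr18, where Impact lies, were left out of the 11. The motif TGCCGC, read on both strands and known to be bound by ZFP57 when methylated, stood in 2 of the 11 windows, 1 of Commd1 and that at the Snrpn-201 start. It stood in 11.6% of all windows, so this count is near the background. The Mcts2 window shown above, not among the 11, also held the motif. Several of the 11 windows belong to Snrpn and weigh on the median, with RefSeq starts up to 309958 bases from the nearest entry start.

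Of 73 other imprinted mouse genes listed by name, 72 were found, and 22 of them (30.6%) reached 1 TPM in all libraries, 10 reached 10 TPM, and 21 were listed at 0 TPM in all, of which 1, Zdbf2, had 1 count in 1 library. Their median level was 0.103 TPM. The highest were Gnas, which encodes the stimulatory G protein subunit, with 143.9 ± 6.81 TPM, then Herc3 (75.5 TPM), Nap1l4 (73.8 TPM), Ago2 (56.6 TPM), Ube3a (50.5 TPM) and Tspan32 (49.9 TPM). Chrac1, Osbpl5, Mcts2 and Jade1 lay between 14.2 and 16.8 TPM. Ago2 and Chrac1 are neighbours of Trappc9 and Peg13, and Tspan32 and Nap1l4 of Kcnq1. The lowest listed above 0 TPM were Kcnq1 and Meg3, and Meg3 had 2 counts in 1 library. Of these genes 28 were tested for spread and edgeR called 0, with 0 at an unadjusted p below 0.05 and 0 marked by DESeq2 as outlying in dispersion.

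Genes listed as tied to imprints or to DNA methylation, not only those that keep imprints, were mostly present. The list was chosen with earlier results of these data known. Of 20 listed, 16 (80%) reached 1 TPM in all libraries, against 21.3% of all genes. At 10 TPM there were 12, against 6051 of all 55536 genes. Trim28, the corepressor recruited to imprinted regions, was highest at 136.0 ± 4.77 TPM, followed by Smchd1 at 74.8 ± 9.72 TPM, the oxidase gene Tet3 at 56.8 ± 0.835 TPM, Ctcf at 53.2 ± 3.98 TPM, Ehmt2 at 44.1 ± 1.49 TPM and Zfp445 at 42.1 ± 4.94 TPM (SD, n = 3). Zfp57, whose protein guides Trim28 to methylated imprints in embryonic stem cells, had 0.03, 0.16 and 0 TPM, from at most 1 count a library, while Zfp445, a zinc finger gene with the same known role, was at 37.0 to 46.9 TPM. Of the 16 tested for spread, edgeR called 0 and 1, Uhrf1, had an unadjusted p below 0.05, with 0 marked by DESeq2.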

How the data were processed

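Total RNA was measured in 3 libraries of 1 group, each with a gene table and 2 transcript tables. Per the file headers, 2 of them, the gene table and a transcript table called the first here, carry estimated counts (expected counts), TPM and posterior columns made by the authors. The deposited README states mm10 with GENCODE M21. No source used here names the aligner or the quantifier. The second quantification is the second transcript table, whose deposited TPM and estimated counts were summed per gene. The labels name a directional kit, but whether counting used strand is not stated, so antisense overlaps (Zrsr1 with Commd1, Kcnq1ot1 with Kcnq1) are uncertain.

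Entries with no gene name held 0.309% to 0.318% of counts and were left out. Estimated counts were rounded for edgeR 4.0.16 (R 4.3.3; TMM, its default filter on low counts, an intercept-only quasi-likelihood fit). Each gene's residual dispersion was set against the robust abundance trend by an F test, with Benjamini-Hochberg adjustment over 13280 genes. Tested on simulated data of 13086 genes, it recovered 75% of 2-fold and 98% of 4-fold changes in 1 library. Of its 174 calls there, 1 was false. How far these values hold for the deposited libraries was not tested. DESeq2 1.42.0 served as an alternative. Levels, ratios (no pseudocount) and shares used pandas 2.3.3, and exact permutations used all sign flips of the 3 libraries.

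All 10 genes, their pair partners, and the 10 highest and the 2 lowest above 0 of the other imprinted genes were named. So were any of those called and transcripts of at least 10% in either quantification. Of the genes tied to imprints or to DNA methylation, the 6 highest and Zfp57 were named. Uhrf1, entries under 10% and marker genes were named after their values were seen. Since the libraries form 1 group, no gene of like pattern was sought. The genes and lists were chosen with earlier results of these data known. Promoter windows are RefSeq's, build GRCm38.p6, with none used here for Impact, Trappc9 or Peg13. A planned comparison of protein sequences was not run, and transcripts were aligned in its place with biopython 1.88.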

Additional observations from a re-analysis of the deposited data

How the results depend on the processing

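No paired analysis was possible because the 3 libraries form 1 group. The number of genes called for spread, 75, was 138 with no filter on low counts, 28 with a non-robust fit and 158 by DESeq2's dispersion outliers; leaving out each library gave 33 to 85. Of the 10 imprinted genes, 1 was called, against 2 in the second quantification, where Zrsr1 was added with an adjusted p of 0.00605; leaving out each library gave 0 to 1. The adjusted p of Igf2r, where edgeR gave one, ran from 0.00076 in the second quantification to 0.0452 in the non-robust fit with all libraries, and leaving out each library gave 0.00411 to 0.995. The Airn to Igf2r log2 ratio, -0.30, was 0.26 in the second quantification, and leaving out each library gave -0.47 to -0.17. That of Peg13 to Trappc9 was 0.058 on CPM not divided by length. The cause was not tested. At a threshold of 10 TPM, chosen after seeing the data for the 10 genes, 4 of them and 10 of the other imprinted genes remained. The ratio of Mcts2 to the H13 entries that run across it, -1.25 against -2.0 over all entries, was likewise added after seeing the data. The other 48 recomputed log2 ratios kept their sign. For pairs with the same sign in every library, leaving out a library or adding 1 to each TPM could not change it. Leaving out 1 of 3 libraries cannot shift a mean by more than 1 SD. The means and shares recomputed without a library were therefore bound not to move. Of the recomputed mean TPM values 9 moved by more than 1 SD, all in the second quantification, where only Igf2r did not. The other 41 did not move. Of the recomputed shares 26 moved, in the second quantification or the posterior mean, and 104 did not. The counts of 43.2 to 53.4 behind Snrpn and 92.3 to 99.0 behind Commd1 limit their shares.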
